A study of Homo sapiens with 4 samples.

Results

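The genes described here encode subunits of polycomb repressive complex 1 (PRC1), and chromatin accessibility was measured at their loci in HepG2, a cell line from a human hepatocellular carcinoma. The list held 9 genes (CBX2, CBX6, CBX7, CBX8, BMI1, PCGF2, RING1, RNF2 and PHC2) out of 20033 protein-coding genes annotated on hg38. A window was set for each gene as its GENCODE gene body with 10 kb on either side, and every ATAC-seq peak of any library that overlapped a window was taken. After peaks that overlapped between libraries were merged, these windows held 26 of the 80551 accessible regions of the series. The windows were set from names and positions.

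PRC1 is the polycomb complex that places ubiquitin on histone H2A and compacts chromatin at silenced genes. Its catalytic core pairs RING1 or RNF2 with a PCGF protein, among them BMI1 and PCGF2. In the canonical form a CBX protein reads trimethylated lysine 27 of histone H3, the mark that EZH2 deposits as part of the second polycomb complex, PRC2, and a PHC protein joins complexes together through its SAM domain. CBX proteins also take part in the silencing of the CDKN2A locus, and BMI1 is widely studied as a driver of self-renewal in liver and other cancers.

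Both groups were wild-type HepG2 cells, each library was made with the Omni-ATAC protocol from 50000 cells, the control group was labelled untreated (2 libraries), and the tazemetostat group received the EZH2 inhibitor tazemetostat at 5 µM for 48 h (2 libraries). The labels do not say whether the controls received the DMSO in which the drug was dissolved. The methods describe a DNase I step, to clear free DNA and DNA of dead cells, for the tazemetostat-treated cells. They do not say whether the controls had it, and a difference in this step could not be told apart from the treatment. Nothing in the labels says that the libraries of a group came from separate cultures, so p-values measure the spread between these libraries, which may be technical. The cells carry extra copies of parts of their genome, chromosome 17 included, so a tag count also depends on how many copies of its locus the cells hold.

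The libraries held between 17.2 and 26.6 M mapped tags. Peaks had been called in each library separately. Control 1 had 26133, control 2 had 34768, tazemetostat 1 had 55313 and tazemetostat 2 had 54157, and 4.32% and 5.69% against 11.5% and 9.81% of the mapped tags lay in them. The share of tags in peaks and the number of peaks thus moved with the treatment over the whole genome. The fragment length set for peak calling (200 bp in controls, 144 bp under tazemetostat) moved with it too and cannot be told apart from the treatment. Of 7 hepatocyte markers, 3 (APOA1, APOB and HNF4A) had a peak at the gene start in every library, while ALB, AFP, TTR and SERPINA1 had none, and 0 of 8 markers of blood, endothelial and stromal cells had one. Values below are normalized tag counts, the tags in a peak per 10 M mapped tags of that library, and they exist only where a peak was listed. A listed peak had to reach a density of 4 times the surrounding 10 kb, so a locus without a peak may still hold tags. The tag threshold for calling a peak also differed between libraries. Per 10 M mapped tags it was 8.14 in control 1, 6.72 in control 2, 7.05 in tazemetostat 1 and 6.02 in tazemetostat 2. In the same order the lowest listed tag counts were 6.4, 5.04, 5.04 and 4.89. In bulk libraries, fewer cells with an open site and a less open site in each cell cannot be told apart.

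Sequences at these loci are shown first. They are 200-base stretches next to transcription starts with a peak in at least 1 library, and the start of CBX7, which had none. RefSeq promoter sequences (GRCh38.p14) were matched for 7 of the 9 genes, and CBX2 and CBX8 had no entry. Except for CBX8, each stretch runs from 250 to 51 bases before the RefSeq start, and none overlaps an annotated exon. The CBX8 stretch, read from hg38, is the centre of the interval that both tazemetostat peaks covered. Positions are on hg38: CBX8 chr17:79797143-79797342 (minus strand), CBX6 chr22:38872267-38872466 (minus), CBX7 chr22:39152731-39152930 (minus), BMI1 chr10:22320849-22321048 (plus), PCGF2 chr17:38746679-38746878 (minus, an alternative start), RNF2 chr1:185045308-185045507 (plus), the internal PHC2 start chr1:33349950-33350149 (minus) and the PHC2 gene start chr1:33431146-33431345 (minus). Each is written 5′ to 3′, and capitals mark matches to the searched motifs on either strand.
CBX8: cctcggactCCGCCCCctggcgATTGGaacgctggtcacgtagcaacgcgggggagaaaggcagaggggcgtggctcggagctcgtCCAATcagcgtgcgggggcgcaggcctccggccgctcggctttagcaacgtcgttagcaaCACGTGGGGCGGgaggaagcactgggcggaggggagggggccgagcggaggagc
CBX6: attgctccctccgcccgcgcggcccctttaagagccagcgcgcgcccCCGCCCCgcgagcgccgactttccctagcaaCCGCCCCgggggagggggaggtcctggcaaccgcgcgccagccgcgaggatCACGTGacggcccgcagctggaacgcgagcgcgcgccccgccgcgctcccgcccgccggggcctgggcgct
CBX7: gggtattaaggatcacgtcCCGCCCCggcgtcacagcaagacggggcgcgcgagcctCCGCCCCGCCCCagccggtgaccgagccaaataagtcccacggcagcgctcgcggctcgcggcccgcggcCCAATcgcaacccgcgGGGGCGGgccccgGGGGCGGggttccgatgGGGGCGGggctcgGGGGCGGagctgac
BMI1: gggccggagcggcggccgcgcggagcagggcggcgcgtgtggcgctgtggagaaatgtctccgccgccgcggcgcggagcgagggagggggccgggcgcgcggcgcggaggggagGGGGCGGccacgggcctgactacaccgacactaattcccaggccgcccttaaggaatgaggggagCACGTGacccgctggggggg
PCGF2: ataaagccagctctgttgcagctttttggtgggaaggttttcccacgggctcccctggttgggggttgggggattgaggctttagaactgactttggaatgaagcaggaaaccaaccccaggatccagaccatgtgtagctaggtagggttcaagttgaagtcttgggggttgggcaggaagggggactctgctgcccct
RNF2: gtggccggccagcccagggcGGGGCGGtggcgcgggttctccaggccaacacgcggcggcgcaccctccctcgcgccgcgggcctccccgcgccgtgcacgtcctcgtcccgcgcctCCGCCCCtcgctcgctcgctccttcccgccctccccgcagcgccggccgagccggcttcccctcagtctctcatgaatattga
PHC2 internal start: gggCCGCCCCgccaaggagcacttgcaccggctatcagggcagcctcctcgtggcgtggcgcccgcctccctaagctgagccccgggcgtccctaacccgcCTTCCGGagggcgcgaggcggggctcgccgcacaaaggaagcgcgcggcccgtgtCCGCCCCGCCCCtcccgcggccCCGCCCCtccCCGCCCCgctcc
PHC2 gene start: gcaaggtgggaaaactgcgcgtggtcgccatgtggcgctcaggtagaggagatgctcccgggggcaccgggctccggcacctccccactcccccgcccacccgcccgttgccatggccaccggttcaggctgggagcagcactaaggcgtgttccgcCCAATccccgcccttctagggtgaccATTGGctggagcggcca

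The motifs searched were the SP/KLF box GGGGCGG, the E-box CACGTG, the CCAAT box, the ETS site CCGGAAG, the NRF1 site GCGCATGC, the CRE TGACGTCA, the YY1 site AAGATGG, the E2F site TTTGGCGC and the HNF4 site CAAAGTNCA, each on both strands. Of the 8 stretches, 6 held an SP/KLF box, a motif found in 22.4% of 34943 RefSeq promoter stretches of the same length. The PHC2 gene start and the alternative PCGF2 start held none. An E-box lay in 3 (CBX8, CBX6 and BMI1), against 4.51% of those promoters, and in the CBX8 stretch its last base was the first base of an SP/KLF box. A CCAAT box lay in 3 (CBX7, CBX8 and the PHC2 gene start), against 27.4%, and the ETS site in the internal PHC2 start, against 5.1%. GC content ran from 54.5% in the alternative PCGF2 start to 79.0% in CBX6 and the internal PHC2 start. The promoters of the comparison were taken with or without a peak, a wider set than the stretches shown. In the centres of coding start regions called in all libraries, the SP/KLF box lay in 38.1% and the E-box in 6.1%. Of all 10 windows of 200 bases read at the members, 8 held an SP/KLF box and 3 an E-box. These matches describe the letters only. CBX7, with no peak near its start, held SP/KLF and CCAAT boxes too.

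Taking the 26 regions together, 6 were called in all libraries, 8 in both tazemetostat libraries and neither control, 0 in both controls and neither tazemetostat library, and 12 in other combinations. Over the whole series the share called in all libraries was 20.4%, the share called only under tazemetostat was 13.7% and the share called only in controls was 0.449%. At the PRC1 genes the corresponding shares were 23.1% and 30.8%, with no region of controls alone. Of the 12 in other combinations, 10 were called in more tazemetostat than control libraries, 1 in more control libraries and 1 in equal numbers. Control 1 had a peak in 6 of the 26 regions, control 2 in 11, tazemetostat 1 in 20 and tazemetostat 2 in 22. Over the whole series they had peaks in 25727, 34202, 54676 and 53523 of the 80551 regions, so the libraries differed in the same direction there.

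**Figure D1:**
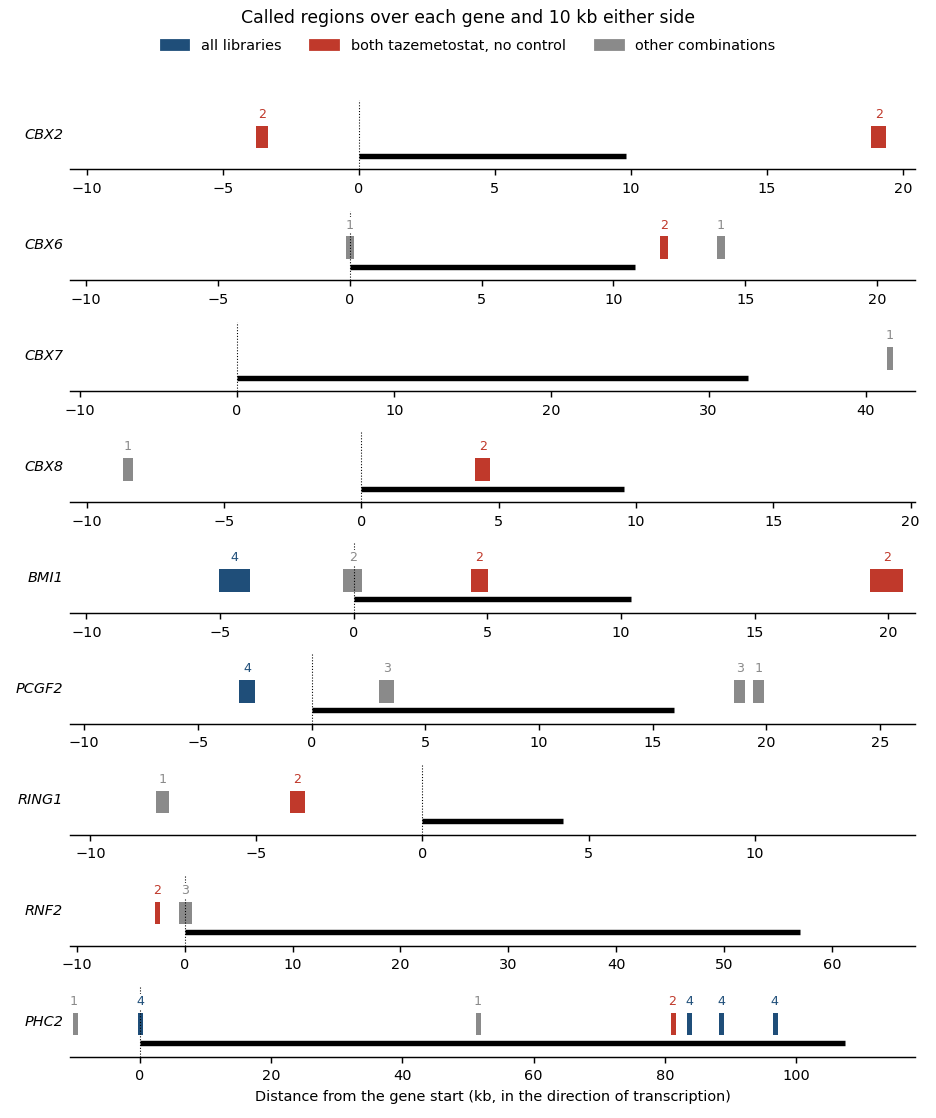
Position of the 26 called regions (coloured blocks, widened where too narrow to see) along each gene (black bar), in kb from the gene start in the direction of transcription, each row on its own scale; the number above a block counts the libraries with a peak. Regions called only under tazemetostat (red) appear at 7 of the 9 genes, the region beyond the end of CBX2 being the one inside CBX8, and PHC2 alone has a region of all 4 libraries at its start.

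By gene, 7 of the 9 windows held at least 1 region called only under tazemetostat, against 32.5% of all coding genes, and 0 held a region called only in controls, against 1.35%. With the same number of peaks taken from every library the count was 4 of 9 (CBX2, CBX8, BMI1 and PHC2), against 12.5%, and on the gene body alone it was 3 of 9 (CBX8, BMI1 and PHC2), against 22.5%. CBX7 and PCGF2 had none. CBX2 and CBX8 lie next to each other and shared 1 such region, so these counts are not independent. The only such regions of RING1 and RNF2 had tag counts below the tag threshold of control 1. At the annotated gene start, 1 gene (PHC2) had a region of all 4 libraries, against 26.7% of coding genes, 5 (CBX2, CBX7, CBX8, PCGF2 and RING1) had no peak in any library, against 55.5%, and BMI1, CBX6 and RNF2 had peaks in some libraries. With the start of any coding transcript of the gene in place of the gene start, these counts were 1, against 32.4%, and 3 (CBX2, CBX7 and RING1), against 45.2%.

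The 8 regions called only under tazemetostat had normalized tag counts from 6.55 to 38.3, which rest on 13 to 76 whole tags a library. Their median level, 12.4, compares with 10.7 over all regions of that class in the series, and 6 of the 8 were above the latter. Their local folds were modest, from 4.02 to 6.74 where 4 was the lowest that could be listed. Transcript starts lay inside 5 of them, 3 of these being starts of CBX8, BMI1 and PHC2 transcripts downstream of the annotated gene start. In the central 200 bp, those 5 had a GC content of 64.0 to 82.0% and an observed over expected CpG ratio of 0.54 to 1.06. The other 3, near CBX2, CBX6 and RNF2, had 46.0 to 63.0% and 0.09 to 0.24. Over all 80551 regions the medians were 53.0% and 0.25.

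**Figure D2:**
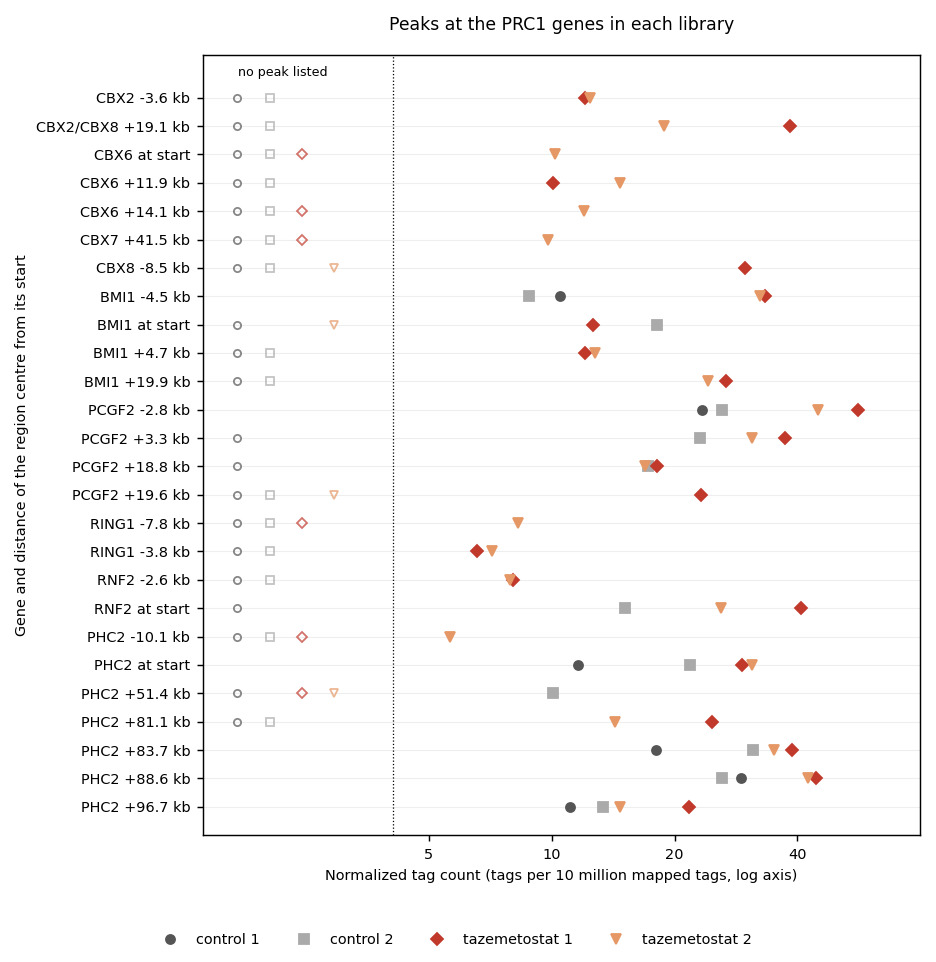
Normalized tag count (tags per 10 M mapped tags, log axis) of each region in each library, by gene and by the distance of the region centre from the gene start in kb (for CBX2/CBX8 from the CBX2 start); filled symbols are listed peaks, summed where a library had 2 (RNF2 start, tazemetostat 2), and open symbols at the left mark libraries with no peak listed. Control symbols are missing from 15 of the 26 rows, where over the series 38125 of 80551 regions had no control peak. In all 6 rows with 4 filled symbols both tazemetostat values are above both control values, as in 81.6% of all tested regions.

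The windows of the CBX readers CBX2, CBX6, CBX7 and CBX8, like that of RING1, had 0 peaks in either control. Over the series 38125 of 80551 regions had no control peak, and 2650 of 20033 coding genes had no region in the window at all. The share of coding genes without a control peak in the window was not computed, so this is not a result particular to these genes. CBX2 and CBX8 span 43.5 kb of chromosome 17 with the flanks, and this stretch held 3 regions, 2 called only under tazemetostat and 1 in another combination. It had 3 peaks in tazemetostat 1 and 2 in tazemetostat 2.

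The region with the highest tag count here, chr17:79796983-79797539, lay inside CBX8 and within 10 kb of the end of CBX2. It covered the start of a coding CBX8 transcript that begins downstream of the annotated gene start. It had no peak in either control, a tag count of 38.3 over 556 bp in tazemetostat 1 and of 18.8 over 300 bp in tazemetostat 2. Per kilobase of peak these were 68.9 and 62.7, which differed less than the tag counts did. Local folds were 4.60 and 4.06, close to the lowest listed. Upstream of CBX2, in intergenic sequence 3554 bp from its start, chr17:79774380-79774809 had no control peak and tag counts of 12.1 and 12.4 under tazemetostat, with local folds of 4.06 and 4.20. Upstream of CBX8, chr17:79809994-79810382 had a peak of 29.7 in tazemetostat 1 alone, with a local fold of 4.07. The annotated gene starts of CBX2 and CBX8 carried no peak in any library, the nearest edges being 3339 and 4144 bp away. For CBX8 this is not the transcript start described above, which had a peak in both tazemetostat libraries.

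CBX6, a reader found in canonical PRC1, had a peak over its gene start (chr22:38872103-38872403) in tazemetostat 2 alone, at 10.2 with a local fold of 4.18. Beyond its end, chr22:38860171-38860486 was called only under tazemetostat, at 10.1 and 14.7 with local folds of 4.02 and 4.60. A further region, chr22:38858033-38858333, had 12.0 in tazemetostat 2 alone. CBX7, a reader that is high in embryonic stem cells, had the fewest regions of the list. Its single region, chr22:39110953-39111330, lay 41539 bp past the gene start and beyond the gene end, with 9.79 in tazemetostat 2 alone and a local fold of 7.32. Between the flanks of CBX6 and CBX7, over 311 kb, 17 regions were called (1 in all libraries, 3 only under tazemetostat), with 4 peaks in control 1, 5 in control 2, 7 in tazemetostat 1 and 13 in tazemetostat 2. Of these 17 regions, 4 lay in the windows of the 2 genes.

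BMI1, the PCGF subunit of the classical complex, had 4 regions in its window. The region called in all libraries, chr10:22316063-22317230, covered the start of the neighbour COMMD3, where the COMMD3-BMI1 readthrough transcript also begins. Its tag counts were 10.5 and 8.82 in controls and 33.3 and 32.4 under tazemetostat, 9.66 ± 1.19 against 32.8 ± 0.636 (SD, n = 2). Both tazemetostat values were above both control values. The peaks were 378 and 409 bp long in controls and 1110 and 955 bp under tazemetostat, and the control peaks did not overlap each other but lay 140 bp apart, joined by the longer tazemetostat peaks. Tag counts per kilobase of peak were 27.8 and 21.6 in controls against 30.0 and 33.9, and local folds were 11.01 and 5.39 against 4.66 and 4.77.

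At the start of BMI1 itself, chr10:22320709-22321425 had no peak in control 1, 18.1 over 716 bp in control 2, 12.6 over 300 bp in tazemetostat 1 and no peak in tazemetostat 2. The groups overlapped at this site. Within the gene, chr10:22325480-22326134, at internal starts of coding transcripts, was called only under tazemetostat with 12.1 and 12.8 and local folds of 5.02 and 4.25. Beyond the gene end, chr10:22340426-22341644 covered the start of the long noncoding gene ENSG00000272366 and was also called only under tazemetostat. It had 26.7 and 24.1, over 877 and 991 bp, with local folds of 6.74 and 4.65, the highest fold among the regions of this class.

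PCGF2, the PCGF subunit that alternates with BMI1, had no peak at its annotated gene start and no region called only under tazemetostat. Its accessible start was an alternative one, the RefSeq start shown above. That region, chr17:38746190-38746834, had no peak in control 1, 23.1 in control 2 and 37.3 and 30.9 under tazemetostat, with local folds of 4.90, 5.76 and 5.43. Upstream, chr17:38752308-38753002 lay at the promoter of PSMB3, a proteasome subunit gene, and was called in all libraries. Its tag counts were 23.3 and 26.1 in controls and 56.4 and 44.8 under tazemetostat, 24.7 ± 1.98 against 50.6 ± 8.2 (SD, n = 2), with no overlap of the groups. At the far end of the window, 2 regions lay at starts of CISD3, with 17.2, 18.1 and 16.9 in control 2, tazemetostat 1 and tazemetostat 2 at chr17:38730747-38731243, and 23.2 in tazemetostat 1 alone at chr17:38729938-38730419.

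RNF2, also known as RING1B, is the main E3 ligase subunit of the complex. Its gene start region, chr1:185044957-185046153, had no peak in control 1, 15.1 in control 2, 40.8 in tazemetostat 1 and 25.95 in tazemetostat 2, the last being the sum of 2 peaks of 18.8 and 7.15. Because a control had no peak, this start was not tested. Upstream, 2554 bp from the start, chr1:185042797-185043147 was called only under tazemetostat at 8.06 and 7.91, with local folds of 4.28 and 5.07. Both tag counts were below the tag threshold of control 1 (8.14), so the missing peak there does not show a difference. RING1, the paralog of RNF2, had no peak at its start, and the 2 regions of its window lay at other genes. The start of HSD17B8, chr6:33204500-33204951, was called only under tazemetostat, with tag counts of 6.55 and 7.15 on 13 and 19 whole tags, with local folds of 6.57 and 5.66. These tag counts too were below the tag threshold of control 1 (8.14), so its lack of a peak does not show a difference. The shared start of RXRB and SLC39A7, chr6:33200490-33200867, had 8.28 in tazemetostat 2 alone.

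PHC2, the polyhomeotic subunit, was the longest gene of the list and held 7 regions. Its gene start, chr1:33430578-33431434, was called in every library, with 11.6 and 21.8 in controls and 29.2 and 30.9 under tazemetostat, 16.7 ± 7.21 against 30.0 ± 1.2 (SD, n = 2). The control values spread more than the tazemetostat values, and the groups did not overlap. Peak lengths were 300 and 589 bp against 635 and 781 bp, and per kilobase of peak the tag counts were 38.7 and 37.0 against 46.0 and 39.6. Local folds were 9.65 and 5.17 against 6.77 and 4.27, so on that measure the groups overlapped.

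Within PHC2, 3 intronic regions, which also lie in the overlapping gene ENSG00000225313, were called in every library. The region 83.7 kb from the gene start (chr1:33347049-33347752) had 18.0 and 31.1 in controls and 38.8 and 35.0 under tazemetostat. The one at 88.6 kb (chr1:33342129-33342864) had 29.1 and 26.1 against 44.3 and 42.5, and the one at 96.7 kb (chr1:33334158-33334612) had 11.1 and 13.4 against 21.7 and 14.7. Both tazemetostat values were above both control values in each. Close to them, chr1:33349684-33350237 covered an internal coding start of PHC2 and the promoter of its antisense gene PHC2-AS1, and was called only under tazemetostat. It had 24.7 over 553 bp and 14.3 over 379 bp, with local folds of 4.04 and 4.42. The start of PHC2-AS1 itself lay outside the region. The assay does not mark strand, so the accessibility cannot be assigned to the sense or the antisense promoter. One region in intron sequence, chr1:33379518-33379906, was the only region of the list with a peak in a control (10.1 in control 2) and none under tazemetostat. The last, chr1:33441077-33441377 upstream, had 5.65 in tazemetostat 2 alone.

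To ask which of these differences exceeded the spread between libraries, limma was run over the 15383 regions of the series with exactly 1 peak in each library, on log2(normalized tag count + 1), on which changes of small values come out too small. Of the 6 regions at PRC1 genes in this set, 3 passed the Benjamini-Hochberg threshold of 0.05 with higher and 0 with lower tag counts under tazemetostat. Over all tested regions 42.7% passed with higher and 0.247% with lower tag counts, and both tazemetostat values were above both control values in 81.6%, against 6 of 6 here. The median log2 change was 0.75 over the 6 regions and 0.70 over all tested regions, that is, close to each other. The overall shift depended on scaling: with each library centred on its median, the overall median change was -0.06 and no region of the series passed in limma (before adjustment, 468 with higher and 1188 with lower tag counts had p below 0.05).

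The largest rise was at the COMMD3 and COMMD3-BMI1 start, where the log2 change was 1.67 ± 0.29 (SE; limma, adjusted p = 0.00389), 0.97 above the overall median. It ranked at the 99.6 percentile of all tested changes. On tag counts per kilobase of peak its change was 0.37 ± 0.22 with an adjusted p of 0.158 in limma, below the overall median of 0.41 on that scale, while the log2 change in peak length was 1.39. The PSMB3 promoter near PCGF2 rose by 1.00 ± 0.30 (SE; limma, adjusted p = 0.0183) and by 0.83 ± 0.22 per kilobase of peak (limma, adjusted p = 0.00388). The PHC2 start rose by 0.87 ± 0.32 (SE; limma, adjusted p = 0.0369), 0.17 above the overall median, and its change per kilobase was 0.17 ± 0.22 (limma, adjusted p = 0.517). The changes at the 3 PHC2 introns, in the order 96.7, 83.7 and 88.6 kb from the gene start, were 0.52, 0.62 and 0.64. They did not pass in limma (adjusted p = 0.147, 0.101 and 0.0759), which does not show that they stayed the same. Per kilobase of peak they were 0.41, 0.59 and 0.64, and the latter 2 passed (limma, adjusted p = 0.115, 0.0296 and 0.0203). The 3 regions that passed per kilobase were therefore the PSMB3 promoter and 2 PHC2 introns, and the PSMB3 promoter alone passed on both scales. The smallest change among the 6 was 0.52, and none was below 0.

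After centring, the estimates were 0.91 for COMMD3, 0.24 for PSMB3, 0.11 for the PHC2 start and -0.24, -0.14 and -0.12 for the PHC2 introns in the same order, with adjusted p from 0.25 to 0.916 in limma. The direction of the introns thus turned with the scaling. Without tazemetostat 1 or without tazemetostat 2, limma called 0 of the 6 and 0 regions of the whole series as higher (3284 and 6121 before adjustment), while the estimates stayed near their values, at 1.65 and 1.69 for COMMD3, 0.84 and 1.16 for PSMB3 and 0.91 and 0.83 for the PHC2 start. Without control 1 the COMMD3 start passed (1.79; limma, adjusted p = 0.000271) and the PSMB3 promoter (0.92) and the PHC2 start (0.45) did not (limma, adjusted p = 0.0697 and 0.362). The log2 change of the local fold was -0.71 at the COMMD3 start and -0.39 at the PHC2 start, and neither passed the threshold (limma, adjusted p = 0.695 and 0.856).

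**Figure D3:**
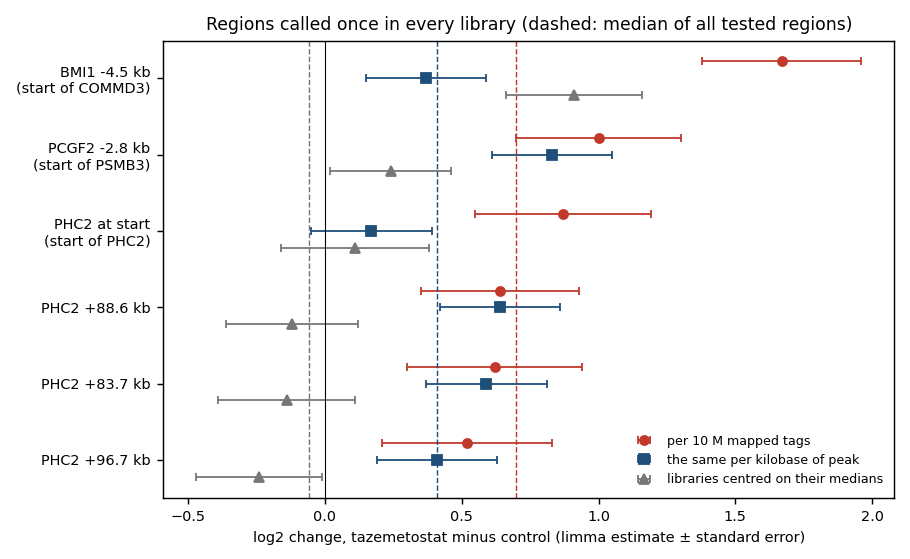
limma log2 change (tazemetostat minus control, with standard error) of the 6 regions at PRC1 genes that had exactly 1 peak in every library, for tag counts per 10 M mapped tags (circles), the same per kilobase of peak (squares) and libraries centred on their medians (triangles); dashed lines mark the median over all 15383 tested regions on the scale of the same colour. The COMMD3 start stands at 1.67 on the first scale and at 0.37 per kilobase, and the PHC2 introns cross 0 once libraries are centred.

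Summed over all peaks of the 9 windows, the normalized tag counts were 103.6 and 210.9 in controls and 524.0 and 432.1 under tazemetostat, 157.3 ± 75.9 against 478.1 ± 65.0 (SD, n = 2), a ratio of 3.04. The groups did not overlap, and the exact two-sided permutation test gave p = 0.3333, the smallest that 2 against 2 libraries allow. The same ratio over all peaks of the series was 2.13. The sum followed what was called: the windows held 6 and 11 peaks covering 2751 and 5925 bp in controls and 20 and 23 peaks covering 10651 and 11110 bp under tazemetostat. Per kilobase of peak the windows had 37.7 and 35.6 against 49.2 and 38.9, near the series values of 39.8 and 36.6 against 45.4 and 39.3. Per 10 M tags in peaks rather than mapped tags, the ratio was 1.47.

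**Figure D4:**
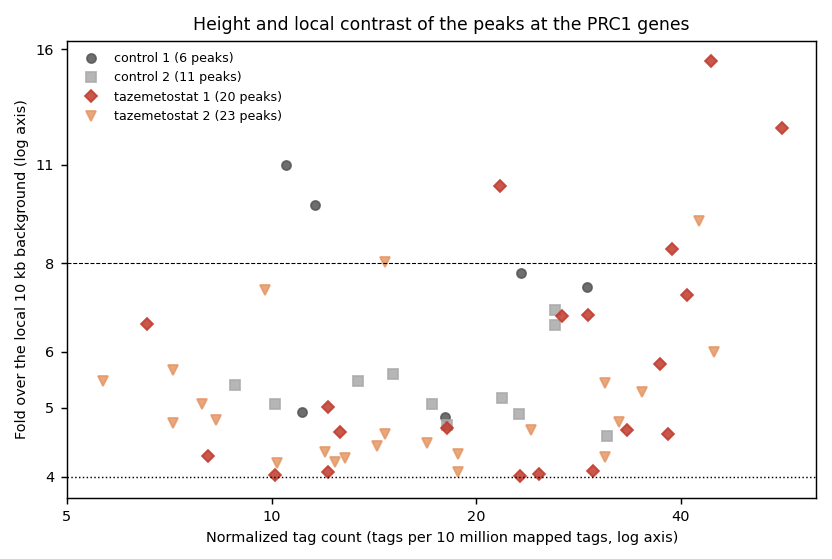
Fold over the local 10 kb background against normalized tag count (both log axes) of every peak at the PRC1 genes, 1 symbol a peak, by library; the dotted line marks the lowest fold that could be listed (4) and the dashed line a stricter limit of 8. Of the tazemetostat peaks, 24 of 43 lie between 4 and 5, 8 of them at tag counts above 20.

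Peaks at the PRC1 genes had low local folds under tazemetostat. Their median local fold was 7.58 and 5.17 in controls and 4.86 and 4.76 under tazemetostat, whereas over all peaks of the libraries it was 5.92, 5.65, 6.09 and 5.75. Folds under 5 were found in 2 of 6 and 3 of 11 control peaks and in 10 of 20 (50.0%) and 14 of 23 (60.9%) tazemetostat peaks, against 31.3% and 35.1% of all peaks of the tazemetostat libraries. Only 6 regions had a peak with a fold of at least 8, and 2 of these were called at that fold only under tazemetostat, both PHC2 introns that had control peaks of lower fold. The lists do not show where a locus held many tags over a broad stretch without a peak, so how far a control without a peak differed from a tazemetostat peak of low fold was not tested.

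The sequence under the member regions was richer in CpG than that under all regions. Many member regions held a transcript start, some of them of neighbouring genes. CpG content over all start regions of the series was not computed, so the difference may not be particular to these genes. In the central 200 bp, median GC content was 63.5% and the median observed over expected CpG ratio 0.58, against 53.0% and 0.25 over all regions. A ratio above 0.6 was found in 13 of 26 (50.0%), against 18.3% of all regions and 36.4% of those called in all libraries. Of the 4 regions at annotated starts of member genes, 2 (PHC2 and BMI1) held the SP/KLF box in the centre, against 38.1% of 4558 coding start regions called in all libraries, and 2 (BMI1 and CBX6) the E-box, against 6.1%. Only the PHC2 start was itself called in all libraries, so for BMI1 and CBX6 these shares come from another class of region.

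A list of other subunits of canonical and variant PRC1 held 17 genes with 81 regions, of which 19 were called in all libraries, 8 (9.88%) only under tazemetostat and 0 only in controls. A region called only under tazemetostat lay in 5 of the 17 windows (29.4%), those of KDM2B, MGA, L3MBTL2, AUTS2 and BCOR, and 1 window (SCML2) held no region. Gene starts had a region of all 4 libraries in 5 of 17 and none in 9. In the remaining 3, the start of PHC3 had 9.24 in control 2 and 11.6 and 17.7 under tazemetostat, that of PCGF6 had 17.1 in tazemetostat 1 alone, and that of AUTS2, a subunit of a variant complex, had 9.57 and 10.9 under tazemetostat alone. Of 18 tested regions, 10 passed with higher and 0 with lower tag counts in limma, with a median log2 change of 0.85. The 3 largest rises were in the PHC3 window at GPR160 (chr3:170078571-170079429), 1.38 ± 0.36 (SE; limma, adjusted p = 0.0125), in KDM2B (chr12:121490339-121491151), 1.30 ± 0.35 (adjusted p = 0.0139), and at the start of PCGF1 (chr2:74507214-74507952), 1.26 ± 0.31 (adjusted p = 0.0105). PCGF1, the PCGF subunit of the variant complex with KDM2B and BCOR, had 18.6 and 22.3 in controls and 61.0 and 41.0 under tazemetostat at its start. Relative to the overall median these 3 changes were 0.68, 0.60 and 0.56, and none passed with libraries centred (limma, adjusted p = 0.60, 0.622 and 0.511).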

How the data were processed

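ATAC-seq libraries of HepG2 cells (2 control, 2 tazemetostat) were grouped by their titles. Per the labels, the authors used Trim Galore 0.6.6 for trimming, Bowtie2 2.3.5.1 for alignment (hg38) and HOMER 4.11.1 for peaks, library by library; per the file headers, 300 bp peaks were stitched into regions, with a fold of 4 over the local 10 kb, a Poisson p-value of 0.0001 against it, at most 1 tag per bp and a false discovery rate of 0.001 (the methods give another value). A shift of tags for the transposase is not given in the sources used here. The deposited normalized tag count is a signal, tags per 10 M mapped tags. Multiplied by the mapped tags it gave whole tags (within 0.25) in 100.0% of peaks, and edgeR on these called 7455 regions higher and 52 lower. Of the deposited ratio columns, the local fold was used and the clonal fold was not. The deposited peak score, a count of tags in an initial peak, and the deposited p-value were not used in tests.

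Peaks overlapping by at least 1 bp were merged, and genes were taken from GENCODE release 44. The members, gene lists and tests were chosen with earlier results of these data known. Named were all 9 members, with every region at a gene start or called in 1 group only, and of the other subunits those with a start peak in some libraries and the 3 largest changes. limma 3.58.1 (R 4.3.3) without a block, with Benjamini-Hochberg adjustment, was the main test; edgeR 4.0.16 and DESeq2 1.42.0 were alternatives, beside centring, peak length, pseudocount 5, a mean tag count of at least 20, a local fold of at least 8, equal peak numbers, 50% overlap, the gene body alone and leaving out each library. The DESeq2 run left 299 regions without an adjusted p. Some genes of the lists are not reported here.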

Additional observations from a re-analysis of the deposited data

How the results depend on the processing

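The 3 higher calls depended on scaling. With libraries centred on their medians, edgeR with TMM factors, DESeq2 or a local fold of at least 8 (which left no member region to test), 0 were called. With the local fold or the peak length as the measure (added after seeing the data), limma called 0 member regions and 0 of all 15383 regions. Before adjustment, 689 regions were higher and 576 lower by local fold, and 2675 higher and 51 lower by peak length. Per kilobase of peak 3 were called, 1 of them in common with the main 3. On the gene body alone 1 was called. Leaving out a library gave 0 to 4 calls. Without tazemetostat 1 or 2, where limma assumed that the lone library varied like the others, 0 regions of the whole series were called higher, and the median change of the members was 0.72 and 0.81. The median log2 change of 0.75 became -0.01 with centring, 0.03 with TMM and 0.04 with DESeq2. The PHC2 start lost its call with centring (0.11), per kilobase (0.17), TMM (0.12), DESeq2 (0.14) and on leaving out libraries (0.45 to 1.30; kept without control 2). The PHC2 introns at 96.7, 88.6 and 83.7 kb turned to -0.24, -0.12 and -0.14 with centring, -0.17, -0.05 and -0.15 with TMM and -0.17, -0.06 and -0.13 with DESeq2.

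Regions called only under tazemetostat numbered 3 with equal peak numbers and 3 on the gene body alone, all among the 8. At a local fold of at least 8 they numbered 2, which were PHC2 introns called in all libraries without that limit and 0 of the 8. Over the series their share was 6% with equal peak numbers and 13.3% at that fold. They numbered 8 to 14 on leaving out libraries, 14 without tazemetostat 1. Those of controls alone numbered 0 to 1 on leaving out libraries (1 without control 1). Regions of all libraries numbered 0 at a local fold of at least 8. Genes with a region called only under tazemetostat numbered 3 on the gene body alone, 1 at a local fold of at least 8 (10.8% of coding genes) and 4 with equal peak numbers (settings added after seeing the data). The log2 ratio of summed tag counts, 1.60, was 3.30 at a local fold of at least 8, 0.55 per 10 M tags in peaks and 1.18 to 2.21 on leaving out libraries. The cause of these changes was not tested beyond what each setting leaves out.

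Whether the replicate numbers pair the libraries is not known. Over the tested regions, replicate 1 minus 2 in controls and under tazemetostat had a correlation of -0.00246, which 2 pairs of libraries cannot settle. With the replicate block, 3 member regions were higher, 0 were lower and the median change was 0.75, while calls over all regions went from 6569 to 5046 higher and from 38 to 27 lower. Over all regions, edgeR with TMM called 23 higher and 174 lower and DESeq2 3 and 103. Peak lists limit depth: a value under 4 times the local density has no entry.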
